A study of Equus caballus with 34 samples.

Results

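The structural matrix genes of the ovarian follicle, the collagens, laminins and their partners, were followed across 2 layers of the horse follicle at 3 stages. The set was a fixed list of 42 genes that build or cross-link the extracellular matrix, matched to array probes by gene name or protein name and kept where a probe lay well above background on 5 or more of the 34 arrays. A probe was found for 40 genes (132 probes, all of which passed), against 10967 named genes and 36629 probes that passed in the whole series. COL4A3 and LAMB1 had no probe under their names and were not analysed here. The 40 genes were 5 fibrillar collagens, 15 basement membrane genes and 20 other matrix genes, and 24 of them had several probes.

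The samples were granulosa cells, the avascular inner layer that surrounds the oocyte and antral fluid, and theca wall, the vascular outer layer, of dominant follicles of horses (Equus caballus). Granulosa cells came from early dominant, late dominant and preovulatory follicles, 5 arrays each. Theca wall came from early dominant (5), late dominant (9) and preovulatory (5) follicles. No treatment, genotype or age is given in the labels, and neither is whether a granulosa and a theca sample came from the same follicle. The design text calls the arrays of a group biological replicates. Each array is named here by layer, stage and a number that carries no order.

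Values are log2 levels, the log2 of a probe's background-corrected intensity over the 75th percentile of its array, so 0 is a fairly bright signal and levels of different probes are not comparable. A gene is represented by the probe with the highest mean. A difference was called where limma's adjusted p, over all features of the same fit, was under 0.05. Each array had 64.3% to 82.5% of its spots well above background and 54 to 375 saturated spots. The 4 arrays of slide 7, all theca wall, carried 1285 to 1718 outlier spots, against 69 to 593 elsewhere. Averaged over the stages, markers followed the labelled layers, and 10 of 10 granulosa markers were higher in granulosa. Of the others, 8 of 8 theca, 12 of 13 endothelial, 12 of 12 smooth muscle and 14 of 14 leukocyte markers were lower in granulosa. Of all features 22.6% were higher and 29.8% lower in granulosa. Single stages had exceptions. In preovulatory follicles the granulosa markers INHBB, FST, HSD17B1, IHH and AMHR2 did not differ past the threshold. The theca markers PTCH1 and GLI1 did not either, and HHIP was higher in granulosa (1.97 ± 0.62, limma, adjusted p = 0.00904). In whole tissue such as this, fewer cells of a type and less RNA per cell cannot be told apart.

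Fibrillar collagens such as types I, III and V assemble into the tension-bearing fibres of connective tissue. Basement membranes are thin sheets in which a laminin network and a type IV collagen network are joined by nidogens and the proteoglycan perlecan, and in the follicle such a sheet separates granulosa from theca until ovulation. Lysyl oxidases, encoded by LOX and its relatives, cross-link collagen and elastin once these are outside the cell.

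Probe sequences, as the arrays give them from 5′ to 3′, are shown to let related chains be compared. Among the type IV collagen chains, capitals mark an 18-base run shared by the probes of COL4A4 and COL4A6. This was the longest run in common in any of 780 pairs of members.
COL4A4: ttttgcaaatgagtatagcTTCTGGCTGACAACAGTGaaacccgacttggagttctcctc
COL4A6: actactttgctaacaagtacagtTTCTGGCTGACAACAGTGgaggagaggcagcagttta

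The last pair, with no capitals, shows the 2 members that were higher in granulosa when stages were averaged. The LAMB2 probe is named LAMC1 in the array annotation, but its description names laminin beta-2 and it is placed on chromosome 16, as LAMB2 is, while LAMC1 is on 5. It was counted as LAMB2.
HSPG2: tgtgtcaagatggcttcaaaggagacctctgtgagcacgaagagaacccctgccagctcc
LAMB2: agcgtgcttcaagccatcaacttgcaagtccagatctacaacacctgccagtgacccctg

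The array annotation places the COL4A4 probe on chromosome 6, HSPG2 on 2 and the COL4A6 probe on no assigned chromosome. The sources used here do not name the build behind these places.

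Averaged over the stages, 33 of the 40 genes differed between the layers, against 52.4% of all features. Theca wall was higher for 31 (29.8% of features) and granulosa for 2, HSPG2 and LAMB2 (22.6%). The median difference, granulosa minus theca wall, was -3.52 over the members and -0.07 over all features. Centring each array on its median moved the all-feature median to 0.51 and left 29 members called higher in theca wall and 6 in granulosa.

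All 5 fibrillar collagens were lower in granulosa. COL1A1, one of the chains of type I collagen, ranged from -3.66 to 1.20 over the 15 granulosa arrays (median -0.96) and from 3.16 to 5.51 over the 19 theca wall arrays (median 4.32). The ranges did not overlap. Its difference was -5.32 ± 0.28 (SE; limma, adjusted p = 2.31e-16), a 40.0-fold lower level.

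COL1A2, its partner chain, differed by -3.81 ± 0.32 (limma, adjusted p = 1.24e-11), and its theca wall arrays lay between 5.07 and 6.26 against -0.24 to 3.97 in granulosa. COL5A2, a type V chain found within type I fibres, differed by -3.61 ± 0.28 (limma, adjusted p = 7.64e-12, 16 of 19 theca wall arrays because outlier spots were left out). COL5A1, also a type V chain, differed by -2.41 ± 0.37, and 11 of 15 granulosa arrays lay below all theca wall arrays. COL3A1, the chain of type III collagen, differed by -1.74 ± 0.27 with the probe used. The COL1A2 and COL3A1 probes were saturated on 16 and 13 theca wall arrays, so their theca wall levels are lower bounds: in preovulatory follicles, where all 5 theca wall arrays were saturated, theca wall was at least 16.4-fold higher for COL1A2 and at least 4.30-fold for COL3A1. Across all 9 COL1A2 probes the stage-averaged difference ran from -6.26 to -3.81, and across 7 COL3A1 probes from -2.60 to -1.74.

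The basement membrane genes divided: 8 of 15 were higher in theca wall and 2 in granulosa, with a class median of -0.98. COL15A1, a collagen of basement membrane zones, and NID1, a nidogen that links laminin to type IV collagen, had the widest gaps. COL15A1 lay at -7.12 to -0.81 in granulosa and 0.46 to 2.98 in theca wall, a difference of -5.80 ± 0.48 (limma, adjusted p = 8e-12). NID1 was well above background on 1 of 15 granulosa arrays and all 19 theca wall arrays, where it lay between -2.91 and -1.06. For NID1 theca wall was at least 20.4-fold higher in late dominant and at least 29.1-fold higher in preovulatory follicles.

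COL18A1, the precursor of endostatin, differed by -4.16 ± 0.29 (18 of 19 theca wall arrays) and, like COL15A1, did not overlap between layers. LAMA4, the laminin alpha chain typical of vessel walls, differed by -3.65 ± 0.37, with 14 of 15 granulosa arrays below every theca wall array. LAMA2, another alpha chain, differed by -3.05 ± 0.28 (17 of 19 theca wall arrays). The remaining 3 of the 8 were NID2, COL4A1 and COL4A2.

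HSPG2, which encodes perlecan, ran against its class. Its granulosa arrays lay between -3.58 and 0.70 (median -0.27) and its theca wall arrays between -4.97 and -2.70 (median -4.45), so 11 of 15 granulosa arrays exceeded all theca wall arrays. The difference was 3.09 ± 0.28 (limma, adjusted p = 6.81e-11), and it was 4.98 and 5.05 on the 2 slides that held late dominant samples of both layers. LAMB2 was higher in granulosa by 0.46 ± 0.20 at the edge of the threshold (limma, adjusted p = 0.0496), and lost the call when any of 22 of the 34 arrays was left out. COL4A4, COL4A5, COL4A6, LAMA1 and LAMC1, all chains of these networks, did not pass the test in this average, with differences between -0.20 and 0.70.

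Among the 20 other matrix genes, 18 were higher in theca wall and none in granulosa, with a class median of -4.26. FBLN5, an elastic fibre glycoprotein, was well above background on 4 of 15 granulosa arrays, so its fitted difference of -5.86 ± 0.38 (limma, adjusted p = 3.89e-14) is not exact. In preovulatory follicles, with no granulosa array well above background, theca wall was at least 26.6-fold higher. BGN, the proteoglycan biglycan, lay at -4.32 to 1.05 in granulosa and 3.94 to 5.12 in theca wall, a difference of -5.74 ± 0.37. POSTN, the matricellular protein periostin, differed by -5.53 ± 0.47 and was well above background on 4 granulosa arrays; the value rests on 14 of the 15. COL6A1 and COL6A3, chains of the microfibrillar type VI collagen, differed by -5.50 ± 0.28 and -5.21 ± 0.54. Neither of the last 2 overlapped between layers.

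ELN, which encodes elastin, and LOXL2 were the exceptions. ELN was well above background on every array and lay between -3.92 and -2.38 in granulosa and -4.51 and -1.28 in theca wall, a difference of 0.02 ± 0.23 (limma, adjusted p = 0.944). LOXL2, a relative of LOX, was estimated 1.99-fold lower in granulosa (limma, adjusted p = 0.0618), with stage differences of opposite sign that are given with the other stage results.

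Vessel, muscle and blood cell markers moved with the layer. The summed linear level of 13 endothelial markers was 0.0901 to 1.55 on granulosa arrays and 2.70 to 13.4 on theca wall arrays, with TEK and EMCN not well above background in any granulosa group. For 12 smooth muscle markers the ranges were 0.525 to 4.74 and 4.12 to 38.3, with MYH11 not well above background in any granulosa group. The 14 leukocyte markers summed to 0.408 to 3.06 and 4.05 to 32.4. The part of these cells in the layer differences was not tested.

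**Figure D1:**
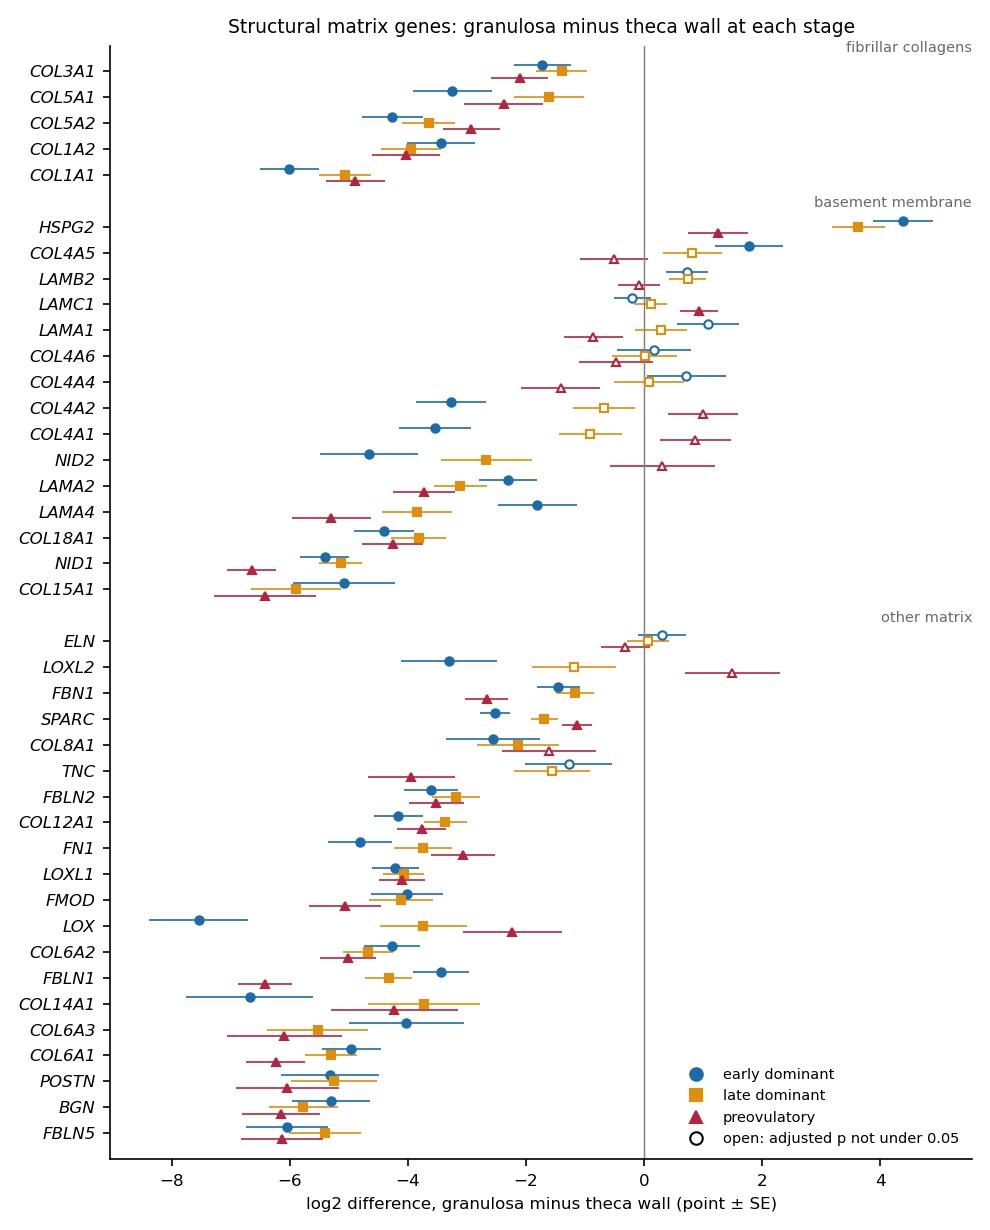
Granulosa minus theca wall difference (log2, point ± SE) of each of the 40 genes at the early dominant, late dominant and preovulatory stage; open symbols did not reach an adjusted p under 0.05. Most genes lie left of 0 at every stage, HSPG2 lies right of 0, and COL4A1, COL4A2, NID2 and LOXL2 move from left to right over the stages.

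Stage by stage, the layers differed for 33 members in early dominant follicles (background 34.4%), 31 of them higher in theca wall (20.1%) and 2 in granulosa (14.3%). With slide as a fixed block the early dominant count was 20, 19 higher in theca wall and 1 in granulosa. No slide held early dominant samples of both layers, or preovulatory samples of both, so layer and slide cannot be told apart within these stages. In late dominant follicles 29 differed (31.1%), 28 higher in theca wall (19%) and 1 in granulosa (12.1%). In preovulatory follicles 29 differed (48.6%), 27 higher in theca wall (28.5%) and 2 in granulosa (20.1%). COL4A5, an X-linked type IV chain, was higher in granulosa in early dominant follicles by 1.78 ± 0.58 (limma, adjusted p = 0.0158). LAMC1, the gamma chain of most laminins, was higher in granulosa in preovulatory follicles, at 0.94 ± 0.32 (limma, adjusted p = 0.0157). The HSPG2 difference was 4.39 ± 0.51 in early dominant and 1.26 ± 0.51 in preovulatory follicles (limma, adjusted p = 4.7e-08 and 0.0401), the latter call being lost when any of 6 arrays was left out. COL5A1, COL8A1, NID2 and COL3A1 were called in late dominant follicles, but 8, 2, 1 and 1 single arrays respectively decided those calls.

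In granulosa cells 35 members were well above background on enough arrays to be tested between stages; NID1, COL14A1, FBLN5, POSTN and TNC were not. From early to late dominant none of the 35 was called by limma's adjusted p (all features, 0.00403%), while 8 had an unadjusted p under 0.05. The share of all features with such an unadjusted p is not given here, so the 8 cannot be set against it. The count of calls was 3 without granulosa late dominant 5 and 5 when all 34 arrays were fitted together. The late dominant arrays were spread widely. LOX was not well above background on any early dominant array and lay at -4.02, -3.60, -1.63, -5.20 and -9.67 on the late dominant arrays, the last of them not well above background. The late dominant mean was at least 4.61-fold higher, a difference that did not pass (limma, adjusted p = 0.198). The estimates for COL4A1 and COL4A2 were 2.64 and 2.56 (limma, adjusted p = 0.216 and 0.204).

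Between early dominant and preovulatory granulosa, 20 of the 35 changed, against 44.2% of features. Of these 10 rose (21.6% of features did) and 10 fell (22.5%), and the median was -0.12 over the members and 0.04 over all features. By class, 12 of 14 basement membrane genes, 7 of 16 other matrix genes and 1 of 5 fibrillar collagens were called.

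Among the members with the largest rises were cross-linking enzymes and basement membrane genes. LOX lay at -3.46, -0.36, -3.28, -2.24 and -4.49 on the preovulatory arrays and at most at -8.36 on the early dominant ones, where no array was well above background. Every preovulatory array was higher than every early dominant array, and the rise was at least 19.2-fold (limma, adjusted p = 0.000553). LOXL2, a LOX relative that also acts on type IV collagen, went from -3.49, -3.74, -4.05, -3.54 and -5.22 to 2.06, 2.81, 2.22, 1.50 and 2.20. The arrays of the 2 stages stood far apart, and the rise was 6.17 ± 1.05 (limma, adjusted p = 0.000469).

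COL4A1 and COL4A2, neighbouring genes that make the most widespread type IV collagen, rose together. COL4A1 lay at -0.28, 0.78, -2.13, 0.95 and -0.18 in early dominant and 4.55, 4.09, 4.43, 5.00 and 4.84 in preovulatory granulosa, a rise of 4.75 ± 0.84 (limma, adjusted p = 0.000596). COL4A2 lay at -5.35, -3.76, -6.83, -5.08 and -4.07 and then at -0.02, -0.89, 0.61, 1.42 and 0.53, a rise of 5.35 ± 0.77 (limma, adjusted p = 0.000227). Neither gene overlapped between the stages.

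NID2, the second nidogen, lay at -0.50, -0.29, -1.42, 1.80 and -4.76 in early dominant and 4.87, 3.76, 4.56, 4.27 and 4.84 in preovulatory granulosa. It rose by 5.50 ± 1.11 (limma, adjusted p = 0.00131), with no overlap. LAMC1 rose by 1.53 ± 0.38 (limma, adjusted p = 0.00487), with 4 of 5 preovulatory arrays above all early dominant arrays.

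The other type IV chains went the opposite way. COL4A4 lay at 0.45, 1.10, 0.21, 1.41 and 0.21 in early dominant and -4.61, -3.35, -4.95, -1.48 and -3.20 in preovulatory granulosa, a fall by 4.20 ± 0.77 (limma, adjusted p = 0.000747). COL4A5 lay at 1.21, 2.08, 2.16, 2.28 and 1.58 and then at -2.04, -2.22, -1.69, -0.38 and -1.69, and fell by 3.47 ± 0.73 (limma, adjusted p = 0.0018). Neither overlapped between these stages. COL4A6, the gene next to COL4A5, fell by 1.71 ± 0.60 (limma, adjusted p = 0.0309), was well above background on 2 of 5 preovulatory arrays, and lost its call without any of 7 arrays. In RefSeq's horse annotation (TB-T2T), 4 pairs of tested members are neighbours with 0 coding genes between them. The granulosa estimates had the same sign for COL4A1 with COL4A2 and COL4A5 with COL4A6, and opposite signs for COL3A1 (-0.63) with COL5A2 (2.03) and COL6A1 (-0.07) with COL6A2 (0.49).

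LAMA1, LAMA2 and LAMA4, which encode laminin alpha chains, and HSPG2 also fell. LAMA4 lay at 0.75, 0.24, 0.78, 2.05 and -1.21 in early dominant granulosa, and in preovulatory granulosa its median was -3.93 and its lowest array -4.64, a fall by 4.08 ± 0.93 (limma, adjusted p = 0.00285). LAMA1, an alpha chain prominent in epithelial basement membranes, lay between 2.18 and 3.84 and then at -0.48, 0.59, 0.05, 1.68 and -0.27, a fall by 2.91 ± 0.64 (limma, adjusted p = 0.00227). HSPG2 went from -0.05, 0.25, -0.27, 0.70 and 0.22 to -3.18, -3.58, -2.89, -1.16 and -2.58, a fall by 2.85 ± 0.64 (limma, adjusted p = 0.00267). All 3 genes had every preovulatory array below every early dominant array. LAMA2 fell by 2.27 ± 0.67 with the same separation, and LAMB2 by 1.01 ± 0.38, a call lost without any of 8 arrays.

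Among the remaining members, COL8A1 (a short-chain collagen) rose by 2.55 and COL5A2 by 2.03. FN1 (fibronectin) rose by 1.93 and SPARC (a collagen-binding matricellular protein) by 1.58. COL8A1 was well above background on 2 of 5 early dominant and 5 of 5 preovulatory granulosa arrays, so its fitted rise is not exact. SPARC was highest on a preovulatory array at 4.79, and its other 4 preovulatory arrays (3.17 to 3.44) also lay above all early dominant ones. FBLN1, a fibulin, fell by 1.90 and FBN1, which encodes the microfibril protein fibrillin-1, fell by 1.28. The FN1 and FBN1 calls (limma, adjusted p = 0.0451 and 0.0486) were lost without any of 9 and 11 arrays. COL5A2 was the only fibrillar collagen called; COL1A1 and COL5A1 were estimated higher (1.52 and 1.41) and COL1A2 and COL3A1 lower (-0.86 and -0.63), none past the threshold. COL6A1, COL6A2, COL6A3, BGN, FMOD, LOXL1, ELN and FBLN2 also did not pass.

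**Figure D2:**
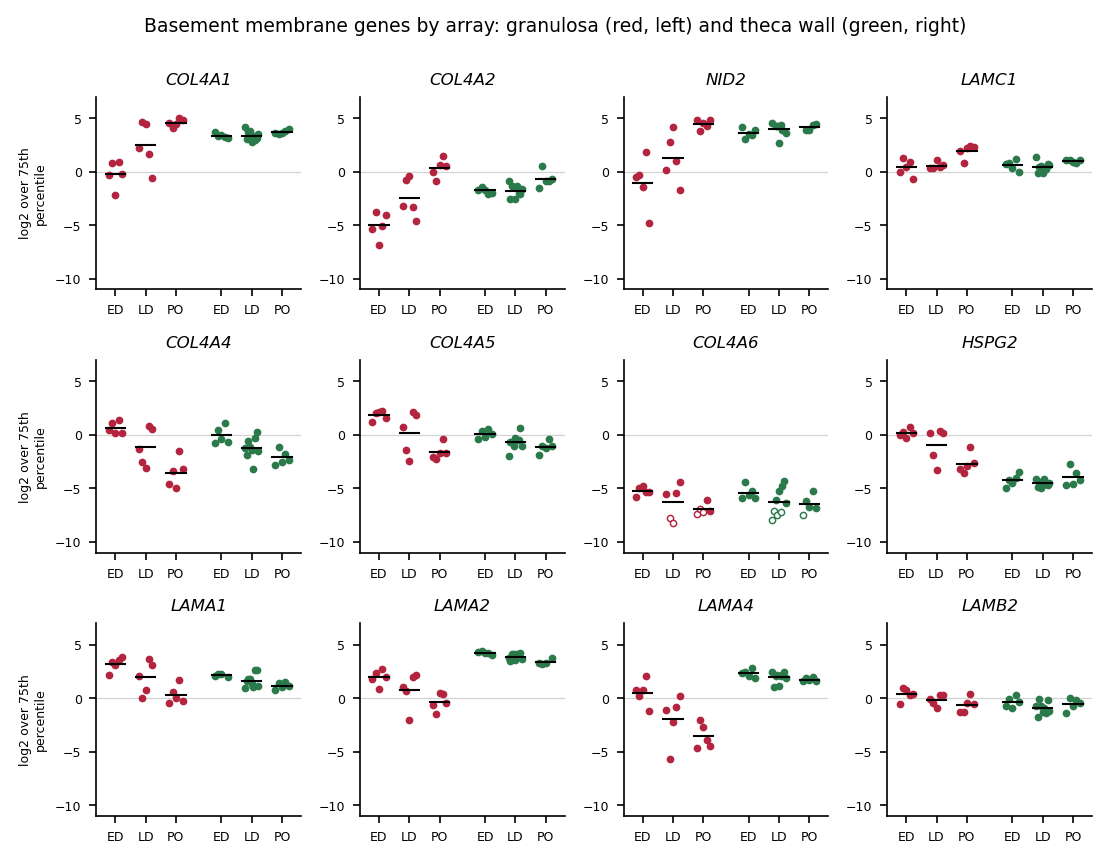
Log2 level over the array's 75th percentile of 12 basement membrane genes, one point per array, for granulosa (red, left) and theca wall (green, right), with ED for early dominant, LD for late dominant and PO for preovulatory; bars are group means and open points were not well above background. COL4A1, COL4A2 and NID2 climb in granulosa to the theca wall level or above, while COL4A4, COL4A5, HSPG2, LAMA1, LAMA2 and LAMA4 fall; the theca wall means of these genes lie closer together.

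Within slides, which each held granulosa of every stage, all of COL4A1, COL4A2, NID2, LOX, LOXL2 and SPARC were higher in preovulatory than in early dominant on 5 of 5 slides. COL4A4, COL4A5, LAMA1, LAMA2, LAMA4, HSPG2 and FBLN1 were lower on 5 of 5. The LAMC1 difference was above 0 on 4 of 5, from -0.49 to 2.97. The genes named here were picked from calls on these same arrays. Where every preovulatory array already lay beyond every early dominant array, 5 of 5 follows from that separation and adds no evidence. The share of all features reaching 5 of 5 is not given here. Leaving out each array in turn left 16 to 20 of the 35 members called.

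Some cell markers also moved over the same stages, in which 21.6% of all features rose and 22.5% fell. Of 10 tested smooth muscle markers 4 rose in granulosa: CNN1 at least 91.7-fold, DES at least 11.3-fold, TAGLN (log2 3.32) and ACTA2 (1.23). Their list summed to 0.525 to 0.800 in early dominant and 1.91 to 3.57 in preovulatory granulosa, with MYH11 not well above background in either. Of 14 leukocyte markers 6 rose and 1 fell (summed 0.463 to 0.717, then 1.21 to 2.83), of 7 endothelial markers 1 rose, and of 8 theca markers 1 rose and 3 fell. Of 10 granulosa markers 7 fell, the summed level going from 199 to 330 down to 105 to 147. The part of these cells in the changes above was not tested.

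From late dominant to preovulatory granulosa, 5 of 35 members were called, 3 higher and 2 lower, where 17.6% of all features were called, 6.84% higher and 10.8% lower. COL4A2 (2.79 ± 0.77), LAMC1 (1.39 ± 0.38) and LOXL2 (3.85 ± 1.05) rose, and COL4A4 (-2.40 ± 0.77) and FBN1 (-1.54 ± 0.50) fell (limma, adjusted p from 0.0231 to 0.0451). LOXL2 lay at -3.06, -0.23, 2.94, -3.71 and -4.38 on the late dominant arrays, and no preovulatory array was above the highest of these. The count depended on single arrays. It was 0 without granulosa preovulatory 3, late dominant 4 or preovulatory 5, 1 without late dominant 1 or 5, 3 without preovulatory 1 or 2 or early dominant 1 or 3, and 14 without late dominant 3. This comparison shares the preovulatory arrays with the one before.

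In theca wall none of the 40 members was called from early to late dominant (limma, background 0.037%, 0.0148% higher and 0.0222% lower). An unadjusted p under 0.05 was found for 3, and the share of all features with such a p is not given here. From early dominant to preovulatory 12 of 40 were called, against 26.2% of features, 6 higher (13.7%) and 6 lower (12.5%). The median was 0.31 over the members and 0.03 over all features. With arrays centred on their medians, 2 were higher and 9 lower, and with the deposited values 3 and 6, so the balance of directions rests on the scaling.

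COL6A1 and COL6A2, adjacent genes for type VI collagen, both rose. COL6A1 lay at -1.36, -0.57, -1.14, -0.87 and -1.56 in early dominant and -0.14, 0.29, 0.00, 0.07 and 0.32 in preovulatory theca wall, a rise of 1.21 ± 0.22 (limma, adjusted p = 0.00129). COL6A2 rose by 1.25 ± 0.20 (limma, adjusted p = 0.00082), from at most 0.01 to at least 0.31. Both genes separated the stages completely. COL6A3, the third chain, fell by 0.53 ± 0.16 (limma, adjusted p = 0.0255), a call lost without any of 4 arrays.

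TNC, the matricellular protein tenascin-C, was well above background on 1 of 5 early dominant, 3 of 9 late dominant and 5 of 5 preovulatory theca wall arrays. It lay at -7.09, -7.95, -7.87, -4.92 and -7.13 in early dominant and -5.22, -3.40, -4.65, -5.39 and -5.14 in preovulatory theca wall, with overlap through the -4.92 of array theca wall early dominant 4. Its rise of 2.24 ± 0.81 (limma, adjusted p = 0.0477) lost its call without any of 13 arrays and was 0.25 with normexp background correction and quantile normalization. LOXL2 rose by 1.37 ± 0.47, LOX by 1.18 ± 0.39 and COL4A2 by 1.08 ± 0.34, calls lost without any of 7, 4 and 3 arrays.

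COL4A4 fell by 2.07 ± 0.53 (limma, adjusted p = 0.00848), from -0.76, 0.46, -0.41, 1.15 and -0.63 to -2.77, -1.10, -2.52, -1.78 and -2.37, without overlap. COL4A5 (1.18 ± 0.36), FBLN5 (1.07 ± 0.33), LAMA1 (0.97 ± 0.32, 4 of 5 early dominant arrays) and LAMA2 (0.84 ± 0.19, 4 of 5 preovulatory arrays) also fell by these amounts. Their calls, apart from LAMA2's, were lost without any of 3, 3 and 6 arrays. The count of 12 was 6 without theca wall preovulatory 1, 7 without early dominant 1 or preovulatory 2, and 2 when all 34 arrays were fitted together.

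Probes of one gene could differ over the stages. None of the 5 fibrillar collagens was called from early dominant to preovulatory theca wall with the brightest probe. For COL3A1, that probe was saturated on 13 theca wall arrays and gave -0.24 ± 0.18, while the other 6 probes gave 0.52 to 1.21, and the 5 of them that were never saturated were called higher. These 5 overlap each other on the transcript and so are not independent. For COL1A2, 5 of 9 probes had the opposite sign to the brightest, and none was called. For COL1A1, neither of whose probes was saturated on any array, the probe not used gave 1.21 ± 0.37 and was called, and the one used gave 0.41 ± 0.35. Outside this class, FMOD probes at 1.00, 1.12 and 1.13 were called, against 0.27 for the one used. Other FMOD probes gave 0.86, 0.82 and 0.24, not called. A single COL4A1 probe was called at 0.76 ± 0.27, against 0.34 for the one used. Of 7 FMOD and 6 COL4A1 probes, 5 each overlap another probe, so these are not independent either. A BGN probe gave 0.83 ± 0.31, not called, against -0.33 for the one used.

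**Figure D3:**
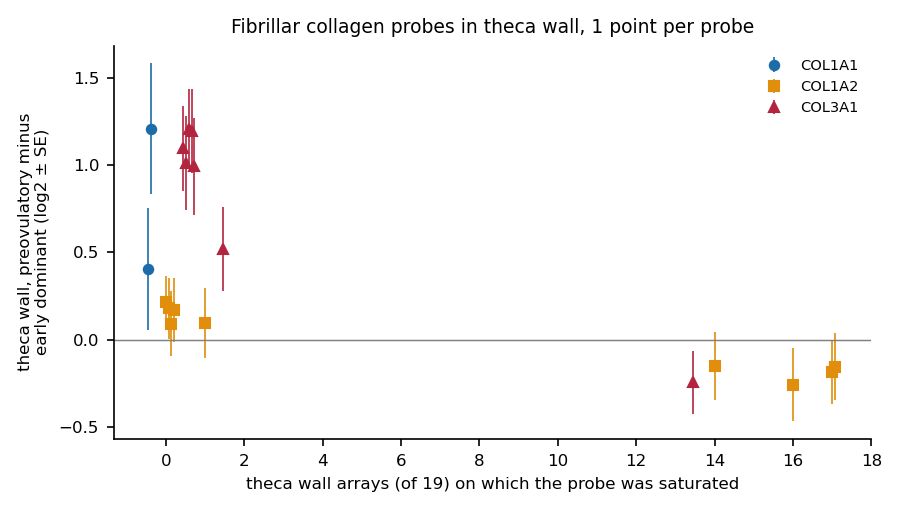
Preovulatory minus early dominant difference in theca wall (log2, point ± SE) of every COL1A1, COL1A2 and COL3A1 probe against the number of the 19 theca wall arrays on which the probe was saturated; points are set slightly apart sideways. All 5 probes saturated on 13 or more arrays lie below 0 (-0.26 to -0.15), and all others lie above 0.

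From late dominant to preovulatory theca wall, 6 of 40 members were called (background 15.6%), all higher (8.66%) and none lower (6.9%). They were TNC (2.29 ± 0.71), COL14A1 (2.23 ± 0.61), FBLN1 (1.13 ± 0.36), COL6A1 (1.12 ± 0.19), COL4A2 (1.10 ± 0.30) and COL6A2 (0.96 ± 0.18). COL14A1, a collagen that binds the surface of fibrils, lay between -4.83 and -0.66 (median -3.84) on 9 late dominant arrays and at -2.05, -0.09, -1.83, -0.55 and -0.60 in preovulatory theca wall, so 3 of 5 were above the highest late dominant array. The median over all members was 0.37 and over all features 0.03. The calls of FBLN1 and TNC were lost without any of 12 and 8 arrays, and those of COL14A1 and COL4A2 without theca wall preovulatory 5. The count was 2 without that array, 1 when all 34 arrays were fitted together, and 10 without late dominant 1 or 6. With arrays centred on their medians 5 were higher and 3 lower. Probes other than those used were also called higher in this comparison: 5 COL3A1 probes never saturated (0.84 to 0.99, against -0.21 for the one used), a COL1A1 probe (1.18 against 0.76) and a BGN probe (0.94 against -0.01).

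Most leukocyte and some endothelial markers rose in preovulatory theca wall. Of all features 13.7% rose and 12.5% fell against early dominant, and 8.66% rose and 6.9% fell against late dominant. Of 14 leukocyte markers 13 rose against early dominant and 13 against late dominant, and the list summed to 4.05 to 8.77, 5.28 to 10.7 and 10.9 to 32.4 in the 3 stages. Of 13 endothelial markers 5 and 6 rose, with sums of 4.39 to 10.1, 2.70 to 10.8 and 8.78 to 13.4. The rest did not pass, and EMCN was estimated lower against early dominant (-0.50). Of 12 smooth muscle markers 2 and 1 rose. Of 8 theca markers 3 fell in each comparison (GLI1, PTCH1 and HHIP), and 1, PDGFRA, rose against early dominant (1.38). The part of these cells in the matrix changes was not tested.

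**Figure D4:**
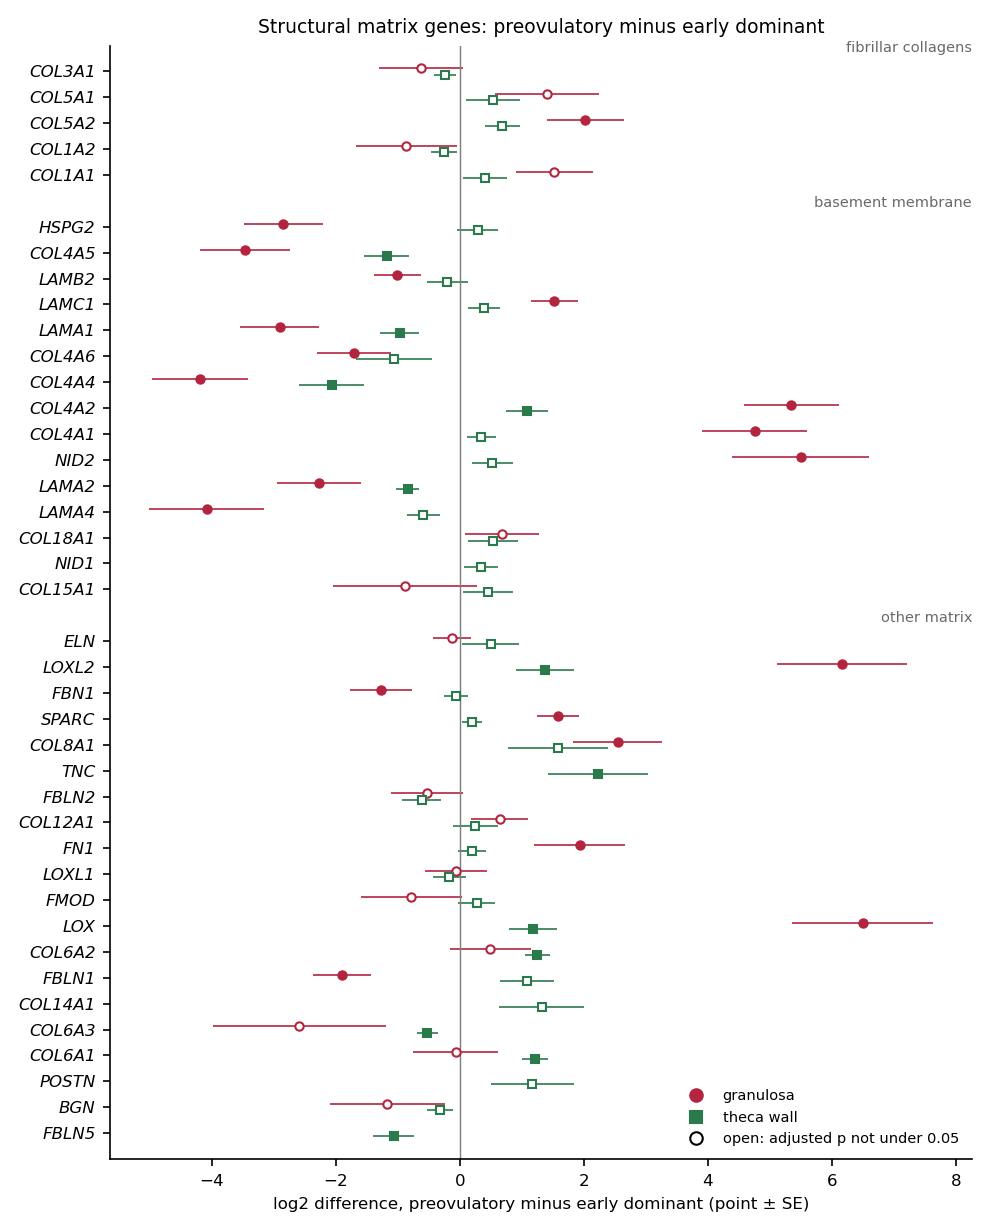
Preovulatory minus early dominant difference (log2, point ± SE) of each member in granulosa (circles) and theca wall (squares); open symbols did not reach an adjusted p under 0.05, and 5 members have no granulosa point because they were too dim to test there. Apart from LOX, whose granulosa point is a fitted value against arrays not well above background, granulosa changes reach from -4.20 to 6.17 and theca wall changes from -2.07 to 2.24.

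The preovulatory minus early dominant change differed between the layers for 11 of 40 members, against 29.5% of features. It was more positive in granulosa for 6 (13.7% of features): NID2 (4.97 ± 1.22), LOXL2 (4.80 ± 1.14), COL4A1 (4.41 ± 0.85), COL4A2 (4.27 ± 0.84), SPARC (1.39 ± 0.36) and LOX. The fitted LOX value, 5.31 ± 1.18, is not exact, since no early dominant granulosa array was well above background. It was more negative for 5 (15.8%): LAMA4 (-3.49 ± 0.95), HSPG2 (-3.13 ± 0.72), FBLN1 (-2.98 ± 0.66), COL4A5 (-2.29 ± 0.81) and LAMA1 (-1.94 ± 0.73). The adjusted p (limma interaction term) lay between 0.000422 and 0.043. The calls of COL4A5 and LAMA1 were lost without any of 7 and 15 arrays. With normexp background correction and quantile normalization LOX was 1.01 and no longer called.

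Among genes whose change was more positive in granulosa, the order of the layer means turned for 4, though none of the later differences passed. COL4A5 changed in the other direction. It was called higher in granulosa in early dominant follicles but not in preovulatory follicles. COL4A1 was 11.6-fold lower in granulosa than in theca wall in early dominant follicles (limma, adjusted p = 2.53e-05), and in preovulatory follicles the difference was 0.87 ± 0.60 (limma, adjusted p = 0.236), with all 5 granulosa arrays above all theca wall arrays. For COL4A2 the early difference was -3.26 ± 0.59 and the preovulatory one 1.01 ± 0.59, for NID2 -4.66 ± 0.84 and 0.31 ± 0.89, and for LOXL2 -3.30 ± 0.81 and 1.50 ± 0.81. All 4 early differences passed the test (limma, adjusted p at most 0.00169). LOX was at least 39.6-fold higher in theca wall in early dominant follicles and 4.68-fold higher in preovulatory follicles, the latter call being lost without any of 4 arrays.

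FBLN1 had estimates of opposite sign in the layers. In granulosa it fell by 1.90 ± 0.47, and in theca wall its estimate was 1.08 ± 0.44 (limma, adjusted p = 0.0752). TNC and COL4A4, both called in theca wall, did not pass the test of the difference between layers (limma, adjusted p = 0.0512 and 0.0874).

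**Figure D5:**
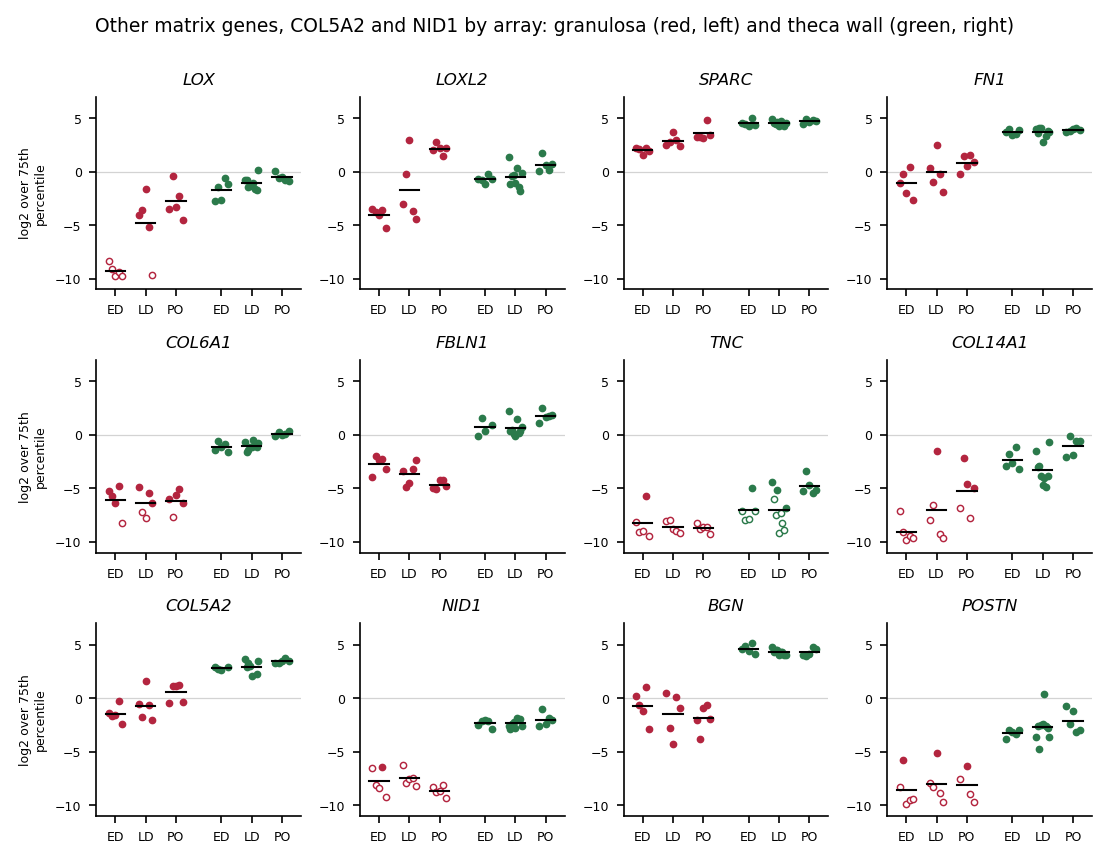
Log2 level over the array's 75th percentile of 12 further genes, drawn as one point per array in granulosa (red, left) and theca wall (green, right), where ED is early dominant, LD late dominant and PO preovulatory; bars are group means and open points were not well above background. LOX and LOXL2 climb in granulosa, COL6A1 and TNC in theca wall, and BGN, NID1 and POSTN keep apart between layers at every stage.

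Other genes of the same pathways were taken from lists set with the members. Of 20 enzymes and chaperones of collagen making, 9 were higher (22.6% of all features) and 5 lower (29.8%) in granulosa averaged over stages. Their median was 0.14, unlike the members' -3.52. The higher ones included PCOLCE2 (3.18), P4HA2 (1.44), a subunit of prolyl hydroxylase, and LOXL3 (1.29). The lower ones included PCOLCE (-3.48), ADAMTS2 (-3.16) and P3H3 (-2.45). PCOLCE2 did not differ between the layers in early dominant follicles (-0.71 ± 1.07, limma, adjusted p = 0.659). In preovulatory against early dominant granulosa 4 rose (21.6% of all features did) and 3 fell (22.5%). PCOLCE2, a procollagen C-proteinase enhancer, rose by 8.30 ± 1.04, P4HA3 by 6.90 ± 0.93 and LOXL4 by 2.03 ± 0.71. The collagen chaperone SERPINH1 fell by 1.56 ± 0.43. In theca wall PLOD1 rose (0.78 ± 0.19) and LOXL4 fell (0.93 ± 0.30), where 13.7% of all features rose and 12.5% fell.

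Of 19 further collagen chains 14 were higher in theca wall (29.8% of all features) and 1, COL9A2, in granulosa (22.6%). The COL9A2 difference did not pass in preovulatory follicles (1.16 ± 0.82, limma, adjusted p = 0.247). In granulosa 12 could be tested across stages, where COL13A1 (5.60 ± 0.88) and COL2A1 (2.46 ± 0.59) rose and COL9A2 fell by 3.07 ± 0.95. Of all features 21.6% rose and 22.5% fell there. The COL2A1 mean in early dominant granulosa was very low (-8.38), so its fitted rise may not be exact. Of its preovulatory arrays, 3 of 5 lay above all early dominant ones. Of 12 further basement membrane genes 9 were higher in theca wall and 2 (TINAGL1 and DAG1) in granulosa, against the same 29.8% and 22.6% of all features. TINAGL1, a matricellular protein, rose by 3.68 ± 0.74 in granulosa and 1.54 ± 0.35 in theca wall, and DAG1, the laminin receptor dystroglycan, fell by 2.52 ± 0.56 and 1.32 ± 0.40. LAMA5 rose by 1.77 ± 0.57 in granulosa.

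Of 26 further glycoproteins and proteoglycans 19 were higher in theca wall (29.8% of all features) and 2, VCAN and SPP1, in granulosa (22.6%). These 2 averages hid stages without a called difference. SPP1 differed by -0.86 ± 1.00 in early dominant and VCAN by -0.32 ± 0.44 in preovulatory follicles (limma, adjusted p = 0.552 and 0.568). EFEMP1, a fibulin, rose by 9.00 ± 1.20 in preovulatory granulosa and 3.61 ± 0.73 in theca wall, and SPP1, osteopontin, by 8.06 ± 1.13 and 3.54 ± 0.84 (4 of 5 preovulatory theca wall arrays). FBN2, fibrillin-2, fell by 5.06 ± 0.94 in granulosa. In all, 4 of 21 rose and 3 fell in granulosa, where 21.6% of all features rose and 22.5% fell. In theca wall 7 of 25 rose and 2 fell, where 13.7% of all features rose and 12.5% fell.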

How the data were processed

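Single-colour Agilent horse arrays were scanned and extracted by the authors, with Feature Extraction 9.1 per the submitters' processing notes and 9.5.3.1 per the file headers. RNA was extracted with TRIzol, had an integrity number above 7.0, and 500 ng was amplified with oligo(dT)-T7 and labelled with Cy3, per the labels' protocols. The deposited intensity values are background-subtracted processed signals, not scaled between arrays. The authors' deposited log2 table matched a quantile normalization of the log2 mean signal (r at least 0.999993, column medians 7.29) and served as an alternative.

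Here log2 intensity minus each array's 75th percentile was fitted with limma 3.58.1 (R 4.3.3) on 43603 probes, with outlier-flagged spots left out, saturated spots kept, and features well above background on 5 or more fitted arrays tested. Stage fits used the arrays of a single layer; layer and interaction fits used all 34 arrays and 6 group means. P-values were adjusted by Benjamini-Hochberg over all features, and the pipeline was tested on simulated data. An "at least" fold sets the bright group's mean against the lowest signal well above background, or the probe's own if higher. Names were updated through RefSeq accessions and gene numbers, and 21978 probes carry a symbol. The members and lists were chosen with earlier results of these data known. Named genes were those called with the largest change in each class or comparison, those against their class, and those whose probes disagreed in sign. Each array counted as 1 biological replicate, as the design text states, and the number of arrays limits precision. That text also speaks of 5 replicates per group in the comparisons and of every group on each slide. All 9 late dominant theca wall arrays were used here, and the file headers do not show every group on each slide. The sequences of the fibrillar collagen probes are not reported here.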

Additional observations from a re-analysis of the deposited data

Results flagged for a closer look

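In 7 of 240 groups of values, the highest array stood apart from its group by Dixon's test, where chance alone gives about 1 in 20. Of the 7, 4 lay on slide 7, whose arrays had the most outlier spots. COL3A1 was 6.18 on theca wall early dominant 4 (next 5.55), and TNC was -4.92 on the same array (next -7.09). The COL3A1 value of 5.55 was saturated and so a lower bound, while the 6.18 was not saturated, so the gap between them is uncertain. POSTN was 0.36 on theca wall late dominant 6 (next -2.43), and FMOD was 3.18 on theca wall preovulatory 4 (next 2.51). In granulosa, COL4A5 was -0.38 (next -1.69) and SPARC was 4.79 (next 3.44) on preovulatory 4, and COL14A1 was -7.13 on early dominant 1 (next -9.11), where it was not well above background.

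The change from early dominant to preovulatory differed between the layers, by limma's interaction term, for 11 members. Granulosa minus theca wall was -3.49 for LAMA4, -3.13 for HSPG2, -2.98 for FBLN1, -2.29 for COL4A5 and -1.94 for LAMA1. It was 1.39 for SPARC, 4.27 for COL4A2, 4.41 for COL4A1, 4.80 for LOXL2, 4.97 for NID2 and 5.31 for LOX, the last a fitted value against early dominant granulosa arrays not well above background.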

How the results depend on the processing

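No called member changed sign under any alternative run (6921 single-gene results kept their call and 344 lost it). Called members fell from 33 to 20 for early dominant layers with slide as a fixed block, and from 6 to 2 for theca wall preovulatory minus late dominant. With all 34 arrays in 1 fit they became 5 for granulosa late minus early dominant, 12 for granulosa preovulatory minus late dominant, 1 for theca wall preovulatory minus late dominant and 2 for theca wall preovulatory minus early dominant. Without a filter on dim probes granulosa preovulatory minus late dominant gave 3. The cause of these shifts was not tested. Leaving out each array gave 32 to 35 for the layers averaged, 32 to 34 for early dominant, 26 to 33 for late dominant and 27 to 30 for preovulatory layers. In granulosa it gave 0 to 3 for late minus early dominant, 0 to 14 for preovulatory minus late dominant and 16 to 20 for preovulatory minus early dominant. In theca wall these were 0 to 0, 2 to 10 and 6 to 13, and 9 to 14 for the interaction. Without granulosa late dominant 5, 3 members were called from early to late dominant. Apart from these, every alternative run kept each of the 11 counts within 1.5 times, but with slide as a fixed block the averaged layer comparison called 24 in place of 33. Only 2 slides held both layers, each through late dominant theca wall. Layer and slide therefore cannot be told apart within early dominant or preovulatory follicles. No paired analysis was possible because the replicate numbers were given in accession order, and only slide could serve as a block. The COL1A2 and COL3A1 probes used were saturated on 16 and 13 theca wall arrays, so their theca wall levels are lower bounds. Whether saturation explains the disagreement between probes was not tested, and probes of COL1A1, BGN and FMOD, none of them saturated, also differed. Signal near background limits NID1, TNC, LOX, COL14A1, COL8A1, FBLN5 and POSTN in granulosa.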
